A study of Mus musculus with 8 samples.

Results

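The miR-29 family comprised 3 mature miRNAs in these data, mmu-miR-29a, mmu-miR-29b and mmu-miR-29c, chosen by name from the 1040 mouse miRNA probes of the array. They were measured in 3 thymic populations sorted from 4-week-old wildtype female NOD mice. cTECs (cortical thymic epithelial cells) were sorted as CD45- EpCAM+ MHC II+ Ly51+, mTECs (medullary thymic epithelial cells) by the same gate but Ly51-, and the CD45+ reference cells, mostly thymocytes, as EpCAM- CD45+. Each of the 3 CD45+, 2 cTEC and 3 mTEC arrays held RNA of cells pooled from 10 to 12 mice, so the spread given here is between pools and not between single animals. The labels name no engineered allele and no treatment of the mice, so the groups differ only in the sorted population as far as the labels go. All 8 arrays lay on 1 slide.

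miRNAs are short RNAs that guide Argonaute proteins to messenger RNAs, mainly through pairing of the seed near their 5′ end, and lower the output of those messages. The miR-29 family is known for repressing extracellular matrix genes, among them collagens, and the de novo DNA methyltransferases. In thymic epithelium, the miR-29a cluster is known for damping the response to interferon-alpha through the receptor chain Ifnar1, and its loss is known to shrink the thymus and to lower the mTEC gene program driven by Aire.

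The mature strands are shown because their shared seed and few differences set what each probe can separate. They are the RefSeq sequences (GRCm38.p6), 5′ to 3′, with the seed at bases 2 to 8 in capitals.

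miR-29a: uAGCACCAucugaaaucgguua

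miR-29b: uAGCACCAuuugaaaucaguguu

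miR-29c: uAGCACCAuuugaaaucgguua

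All 3 members carry the seed AGCACCA, and of 1679 mature mouse miRNA names in RefSeq these 3 alone have it at bases 2 to 8. With positions counted from 1 at the 5′ end, miR-29c differs from miR-29a by C10U alone. miR-29b differs from miR-29a by C10U, G18A, U21G and A22U and is 1 base longer.

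The array probes, complementary to the mature strands, are given here without their T linker, 5′ to 3′, because those of miR-29a and miR-29c are nearly identical; capitals mark the base at which these differ.

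miR-29a probe: gtaaccgatttcaGatggtgcta

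miR-29c probe: gtaaccgatttcaAatggtgcta

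miR-29b probe: gaacactgatttcaaatggtgcta

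The probes of miR-29a and miR-29c differ at 1 position, so cross-hybridisation between them is possible, and its part in either signal was not tested. The members come from a pair of clusters (RefSeq, GRCm38.p6). The hairpins of miR-29a (Mir29a, chr6:31062660-31062747, minus strand) and of the first copy of miR-29b (Mir29b-1, chr6:31063023-31063093, minus strand) lie 275 bases apart. The second copy of miR-29b (Mir29b-2, chr1:195037040-195037120, plus strand) and miR-29c (Mir29c, chr1:195037547-195037634, plus strand) lie 426 bases apart inside the long noncoding RNA gene A330023F24Rik (chr1:195017399-195037908). Both Mir29b copies give the same mature miR-29b, and its probe cannot tell them apart.

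Signals are background-subtracted fluorescence in arbitrary units, averaged over the spots of a probe and scaled between arrays. The level of 1 probe is not set against that of another; only the change of their ratio between populations is. The arrays differed in brightness: the CD45+ arrays detected 169 to 229 mouse probes well above background, the mTEC arrays 236 to 325, and the 2 cTEC arrays 122 and 98. No spot was saturated. The 5 haematopoietic marker miRNAs were all lower in both TEC populations than in CD45+ cells, beside 14.9% of tested miRNAs in mTECs and 20.1% in cTECs. The 7 epithelial markers (miR-200 family, miR-203, miR-205) were all higher in mTECs than in CD45+ cells, beside 9.06% of tested miRNAs. Against CD45+ cells, 1 of these 7 epithelial markers was called higher in cTECs, beside 33 of 309 tested miRNAs. Readings under the floor for testing count as not different there. miR-205 was over the floor in cTECs but was not called (log2 difference 1.64, limma adjusted p = 0.0741). It read 3856 and 997 in cTECs and 99.6, 92.4 and 88.3 in CD45+ cells. The summed signal of the 7 epithelial markers, undetected readings included, was 4442 to 8620 in cTECs and 623 to 704 in CD45+ cells. The endothelial miR-126-3p was higher in cTECs too (log2 difference 1.38, limma adjusted p = 0.0335), a difference understated by the floor. It read 2615 and 1013 in cTECs and 260, 189 and 248 in CD45+ cells. Of the 7 epithelial markers, 5 and 3 were well above background on the first and the second cTEC array, against 0 to 3 on the CD45+ arrays and 7 on each mTEC array. Of 5 mesenchymal markers 3 entered the test, and 2 of them, miR-143 and miR-145, were higher in each TEC population than in CD45+ cells. The other one tested, miR-214, was at the floor on every array, so its test gave no measurement. miR-199a-3p and miR-199a-5p were not well above background on any array. Among all tested miRNAs, 9.06% were higher in mTECs and 33 of 309 in cTECs.

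The signal of mmu-miR-29a was high in CD45+ cells and mTECs and low in cTECs. CD45+ cells gave scaled signals of 8220, 7846 and 7406, mTECs of 7539, 5294 and 4895, and cTECs of 1345 and 550. The signal of 550, on the second cTEC array, was not well above background, whereas the signals on the other 7 arrays were. Both cTEC arrays lay under every other array, and the brightest mTEC array lay within the range of the CD45+ arrays.

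The signal of mmu-miR-29b was highest in CD45+ cells. It was 1741, 2884 and 2393 in CD45+ cells, 1073, 703 and 398 in mTECs, and 470 and 355 in cTECs. The second cTEC array was again not well above background. Every TEC array lay under every CD45+ array, while the lowest mTEC array lay under the first cTEC array, the one on which miR-29b was detected.

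The signal of mmu-miR-29c was low on every array, under the floor used for testing. It was 216, 213 and 206 in CD45+ cells, 352, 369 and 282 in mTECs, and 178 and 272 in cTECs. Neither cTEC array was well above background, and the other 6 were. All 3 mTEC arrays lay over all 3 CD45+ arrays, and no order can be read against cTECs.

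**Figure D1:**
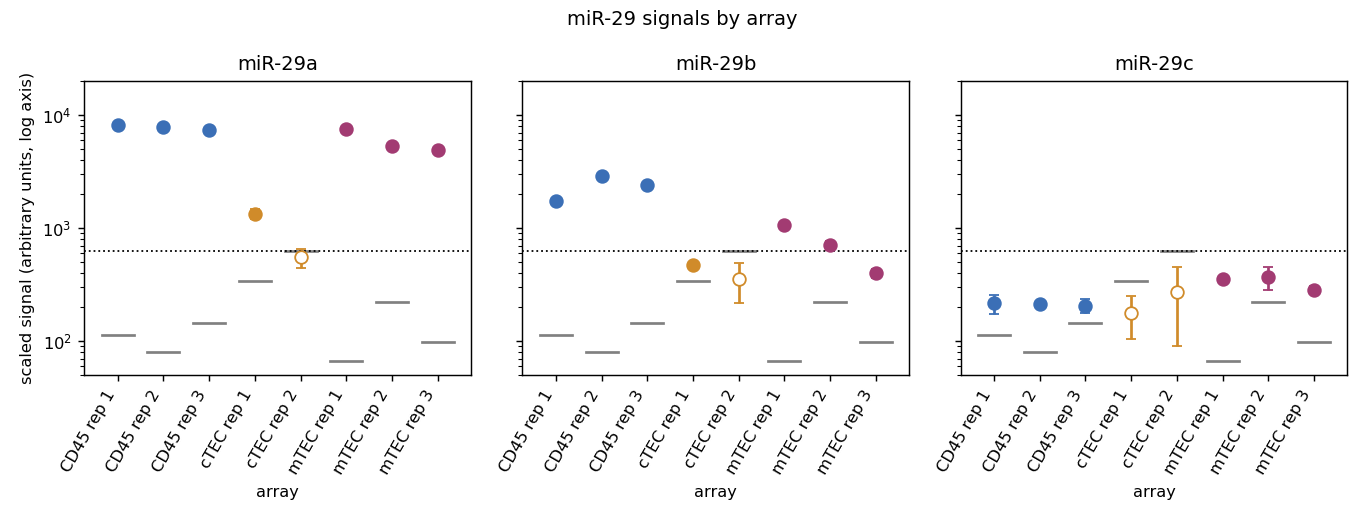
Scaled signal (arbitrary units, log axis) of each member on the 8 arrays, with error bars of 1 SD over the spots of a probe; filled points were well above background, grey ticks mark the lowest signal well above background on that array, and the dotted line marks the floor of 621. miR-29a separates cTECs from the other populations, miR-29b separates CD45+ cells from TECs, and miR-29c lies under the floor on every array.

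The group means give the order of levels for each member. For miR-29a the mean was 7824 ± 407 (SD, n = 3) in CD45+ cells, 5909 ± 1426 (SD, n = 3) in mTECs and 947 ± 562 (SD, n = 2) in cTECs, so that CD45+ cells and mTECs are neighbours whose arrays overlapped. For miR-29b it was 2339 ± 573 (SD, n = 3) in CD45+ cells, 725 ± 338 (SD, n = 3) in mTECs and 413 ± 81.9 (SD, n = 2) in cTECs, with overlapping arrays for mTECs and cTECs. For miR-29c it was 334 ± 46.1 (SD, n = 3) in mTECs and 211 ± 5.17 (SD, n = 3) in CD45+ cells, and cTECs gave only readings under detection.

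The comparison of mTECs with CD45+ cells asks which miRNAs mark the medullary epithelium against the haematopoietic cells around it. Of the 3 members, miR-29b was lower in mTECs. Its mean scaled signal was 3.23-fold lower, and its log2 difference was -1.56 (SE 0.26, 95% CI -2.21 to -0.91, limma adjusted p = 0.00564). miR-29a had a log2 difference of -0.43 (SE 0.31, 95% CI -1.18 to 0.32, limma adjusted p = 0.635) and was not called. This SE rests on a spread shared by all 3 groups, cTECs included. With the CD45+ and mTEC groups fitted alone, the SE was 0.18 (95% CI -0.89 to 0.03, limma adjusted p = 0.203). The difference of miR-29a was under 0 in 21 of 22 alternatives, down to -1.27 with scaling over all mouse probes. It was called in 0 of them (limma adjusted p from 0.0514 to 1). The exception was the processing of the CD45+ and mTEC arrays alone, with 0.19 (limma adjusted p = 0.527), or 0.06 relative to the shifted median of all miRNAs tested. The mTEC mean of miR-29a was 75.5% of the CD45+ mean, against 31.0% for miR-29b. One of 3 members was thus called, beside 23.9% of the 309 miRNAs tested, with 14.9% called lower and 9.06% higher. The groups of miR-29b did not overlap, as was so for 29.8% of tested miRNAs in that direction. The difference of miR-29b ran from -2.62 with scaling over all mouse probes to -0.67 in the deposited table, so its size depended on the processing. Its call held in 20 of 22 alternatives and was lost in those that left cTEC arrays out of the scaling, the filter and the floor: with the CD45+ and mTEC arrays processed alone its log2 difference was -1.16 (limma adjusted p = 0.0971), and with the dimmer, second cTEC array left out before scaling it was -1.43 (limma adjusted p = 0.0978).

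miR-29c entered this test at the floor on every array, so its log2 difference of 0 is no measurement. The floor, a scaled signal of 621, was the highest of the 8 arrays' lowest detected signals and came from the second cTEC array. On the 6 CD45+ and mTEC arrays miR-29c was measured, and its mTEC mean was 158% of the CD45+ mean; a higher reading without overlap was also seen for 39.8% of tested miRNAs. With the CD45+ and mTEC arrays processed alone, miR-29c read 258, 231 and 242 in CD45+ cells and 639, 652 and 484 in mTECs. The floor was then 394, to which the CD45+ readings were set for the test, and the log2 difference was 0.56 (limma adjusted p = 0.0178), or 0.43 relative to the median of the 304 miRNAs tested, which moved up by 0.13. In that processing 36.2% of tested miRNAs were called and 23.7% were called higher. Under the floors of 129 and 67.0 on all 8 arrays the log2 difference was 0.65 (limma adjusted p = 0.0369 and 0.0402), or 0.43 and 0.20 relative to the shifted median, and 17.8% and 24.6% of tested miRNAs were called higher. No higher level was seen in the deposited normalised table, where the log2 difference was -0.02, or after normexp background correction, where it was -0.07. The higher miR-29c reading in mTECs therefore depended on the processing.

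**Figure D2:**
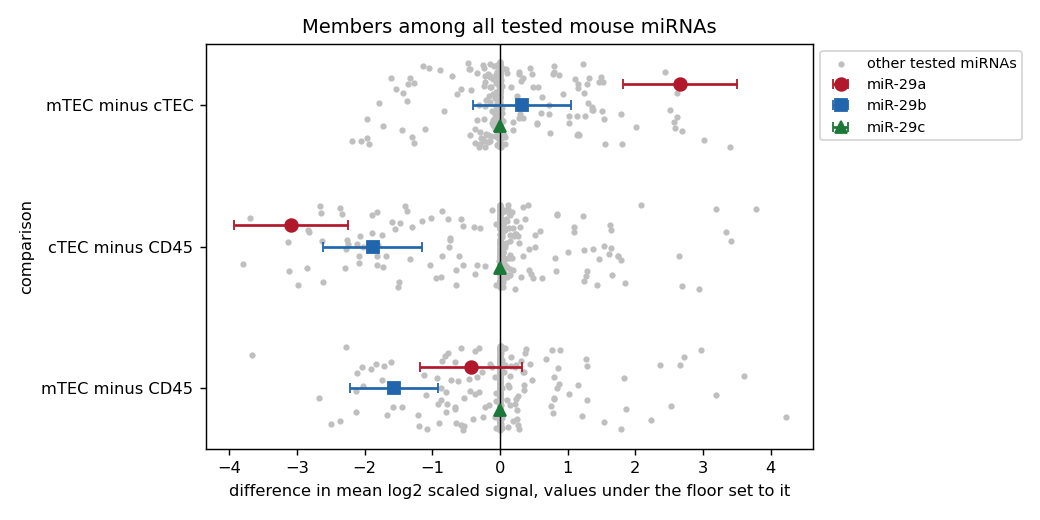
Log2 difference (horizontal) of each of the 309 tested miRNAs in the 3 comparisons, grey points, with the members in colour and bars of the 95% confidence interval. miR-29a lies at -3.09 for cTEC minus CD45 and 2.66 for mTEC minus cTEC, miR-29b at -1.56 for mTEC minus CD45, and miR-29c at 0 throughout because all its arrays are at the floor.

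The comparison of cTECs with CD45+ cells asks the same of the cortical epithelium. For both miR-29a and miR-29b, 1 of the 2 cTEC arrays, the first, measured a signal well above background, so a fold against cTECs depends on how the second is read. miR-29a was 8.26-fold lower in cTECs by mean signal as read, 7.96-fold with the undetected reading set at its detection limit, and 5.82-fold against the detected array alone. It had a log2 difference of -3.09 (SE 0.34, 95% CI -3.93 to -2.25, limma adjusted p = 6.72e-04), and it ran from -5.17 to -1.96 over the alternatives. The undetected second cTEC reading entered this fit almost at the floor, and under both lower floors the log2 difference of miR-29a was -3.20. With the second cTEC array left out before scaling it was -2.07 (limma adjusted p = 0.00583). miR-29b was 5.67-fold lower as read, 4.29-fold with the undetected reading at its limit and 4.97-fold against the detected array alone, with a log2 difference of -1.88 (SE 0.30, 95% CI -2.61 to -1.16, limma adjusted p = 0.00343). Both cTEC values of miR-29b were at the floor in the fit, which understates its log2 difference, and over the alternatives it ran from -4.16 with no normalisation between arrays to -0.91 in the deposited table. With these, 2 of 3 members were called, beside 30.7% of tested miRNAs, 20.1% being called lower, and 30.1% had both cTEC arrays under all CD45+ arrays. Without that second cTEC array from the start, miR-29b was -1.81 (limma adjusted p = 0.0997) and no longer called. For miR-29c, the readings of 178 and 272 lay under the lowest detected signals of those arrays, 342 and 621, so a difference from CD45+ cells was not detectable.

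The comparison of mTECs with cTECs sets the 2 epithelial compartments against each other. miR-29a was higher in mTECs, 6.24-fold as read, 6.01-fold with the undetected cTEC reading at its limit and 4.40-fold against the detected cTEC array alone. Its log2 difference was 2.66 (SE 0.34, 95% CI 1.82 to 3.50, limma adjusted p = 0.00219), and 1.96 (limma adjusted p = 0.00975) with the second cTEC array left out before scaling. The undetected cTEC reading was almost at the floor in this fit too, and under both lower floors the log2 difference was 2.77. The 7 epithelial markers were all called higher in mTECs here too, with a median log2 difference of 2.58. The endothelial miR-126-3p was lower (-1.38, limma adjusted p = 0.0421), understated by the floor, with mTEC readings of 503, 285 and 416. The part of these markers in the difference of miR-29a was not tested. For miR-29b the log2 difference was 0.32 (SE 0.30, 95% CI -0.40 to 1.05, limma adjusted p = 0.597). Both cTEC arrays and the third mTEC array were at the floor in this fit. The difference was 0.77 under both lower floors, 0.95 after normexp and 1.82 with no normalisation between arrays. It was 0.09 without the first mTEC array, and it was called in 0 of 21 alternatives (limma adjusted p from 0.102 to 1). The mTEC level of miR-29c, 334 on average, was under the cTEC detection limits of 342 and 621, though its readings of 352 and 369 were over the first. As both cTEC readings were under detection, no difference could be measured. Calls made under the lower floors and after normexp rest on those undetected cTEC readings. One of 3 members was called, beside 22.7% of all tested and 16.2% called higher, and 29.1% of tested miRNAs were higher in mTECs without overlap.

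Both TEC populations together were set against CD45+ cells by an exact two-sided permutation test on the log2 signals, whose smallest possible p with 5 and 3 arrays is 0.0357. miR-29b differed by -1.69 (exact permutation p = 0.0357), with 5 of 5 TEC arrays under the lowest CD45+ array, as for 19.1% of tested miRNAs. miR-29a differed by -1.49 (exact permutation p = 0.0714), with 4 of 5 TEC arrays under it, and its p reached 0.0357 under 4 of the 8 alternatives that kept all arrays. miR-29c was at the floor on every array (exact permutation p = 1). These 3 p-values were not adjusted.

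Whether the members differed unequally between the populations was also read on 1 array at a time, where scaling cancels. This reading was chosen after the values were seen. Before scaling, the first CD45+ array and the first mTEC array had nearly the same miR-29a signal, 15055 and 15016, but miR-29b signals of 3188 and 2138 and miR-29c signals of 395 and 702. Over all arrays, the log2 difference of miR-29b minus miR-29a ran from -2.24 to -1.44 in CD45+ cells and from -3.62 to -2.81 in mTECs. The shift of its mean was -1.34, a 2.54-fold lower miR-29b relative to miR-29a (exact permutation p = 0.1, the smallest that 3 against 3 arrays allow). This contrast depended on the processing. In the deposited table, which is not background-subtracted, the log2 difference in mTECs minus CD45+ cells was -0.67 for both members. After normexp it was -0.96 for miR-29a and -1.47 for miR-29b.

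The log2 difference of miR-29c minus miR-29a ran from -5.25 to -5.17 in CD45+ cells and from -4.42 to -3.84 in mTECs. Its mean shifted by 1.08, a 2.12-fold higher miR-29c relative to miR-29a (exact permutation p = 0.1, again the smallest possible). The groups overlapped for neither ratio. Among 117 miRNAs read against miR-29a in the same way, 28.2% were lower and 35.9% higher without overlap. Subtracting the median negative control of each array first gave shifts of -1.21 and 1.04. On the first cTEC array miR-29b minus miR-29a was -1.52, inside the CD45+ range, and the second had neither member well above background. A ratio does not show which of its members differed.

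**Figure D3:**
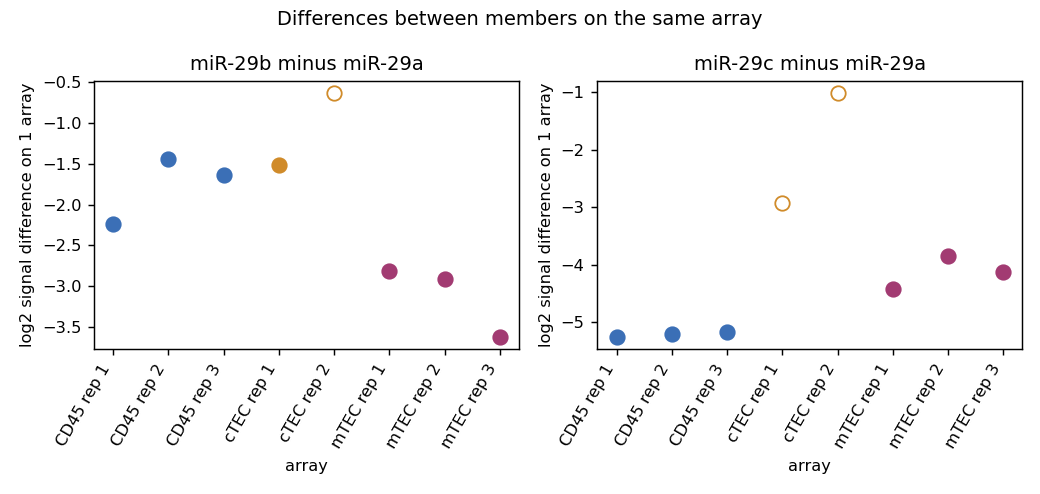
Log2 signal difference between 2 members on the same array, for each of the 8 arrays; filled points had both members well above background. The mTEC arrays lie between -3.62 and -2.81 on the left, under all CD45+ arrays, and between -4.42 and -3.84 on the right, over all CD45+ arrays; open cTEC points carry no measured difference.

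Haematopoietic RNA on the TEC arrays was read from the 5 markers miR-181a, miR-223, miR-150 and both arms of miR-142. Their summed scaled signal ranged from 20943 to 25073 on the CD45+ arrays. The cTEC arrays held 20.8% and 14.5% of the CD45+ mean of this sum, and the mTEC arrays held 10.6%, 8.53% and 8.33%. Of the markers, 2 of 5 (miR-150 and miR-181a) were well above background on each cTEC array, at 15.3% and 27.3% of their CD45+ means on the first and at 21.7% and 7.25% on the second. On the first cTEC array miR-29a stood at 17.2% and miR-29b at 20.1% of the CD45+ mean, between those markers, and on the second neither was well above background.

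On the mTEC arrays miR-29a stood at 96.4%, 67.7% and 62.6% of its CD45+ mean, and miR-29b at 45.9%, 30.0% and 17.0%. The detected single markers ran from 6.60% to 16.6% over these arrays, so that both members' shares lay above them, that of miR-29b on the third array by little. The first mTEC array was the highest of its group for miR-29a, miR-29b and the marker sum. How much of the members' signal came from haematopoietic RNA was not tested. In these sorted pools, fewer cells of a type and less RNA per cell cannot be told apart.

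**Figure D4:**
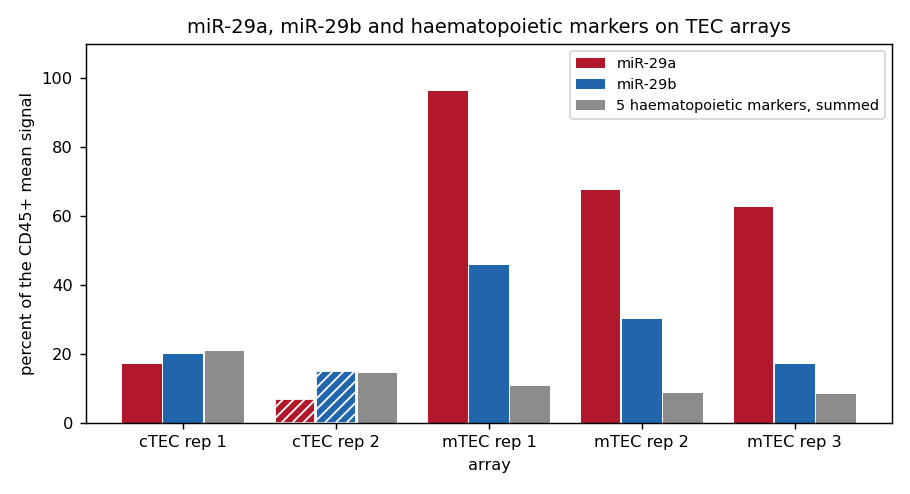
Signal on the 5 TEC arrays as a percent of the CD45+ mean (bars from 0), for miR-29a, miR-29b and the sum of 5 haematopoietic marker miRNAs. The marker sum runs from 8.33% to 20.8%; miR-29a on mTEC arrays runs from 62.6% to 96.4%, and hatched bars mark members not well above background.

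The arrays lay in 2 rows of the slide, which served as a check of position. Within the first and the second row, miR-29a in cTECs minus CD45+ cells was -2.58 and -3.56, and miR-29b in mTECs minus CD45+ cells was -1.06 and -1.86. miR-29a in mTECs minus cTECs was 2.49 and 3.02. Directions were the same in both rows for these 3 differences, and with few arrays in a row no test was made within one.

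The passenger strands of the same hairpins, the arms usually degraded after processing, were near background. Of miR-29a*, miR-29b-1*, miR-29b-2* and miR-29c*, 0 of 4 passed the detection filter. The one array with a detected reading was the third mTEC array, where miR-29b-1* gave a scaled signal of 122.

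Other miRNAs share roles with the family. miR-148a, miR-148b and miR-152, which also repress DNA methyltransferases, had 1 of 3 called higher in mTECs than in CD45+ cells, beside 9.06% of all tested, and 2 of 3 at the floor on every array. The one called was miR-148a, with signals of 402, 472 and 388 in CD45+ cells and 1105, 1366 and 1348 in mTECs. Its log2 difference was 1.02 against CD45+ cells (limma adjusted p = 1.66e-04) and 1.02 against cTECs (limma adjusted p = 4.25e-04), both understated by the floor. Under the floor, miR-148b read 295, 287 and 225 in CD45+ cells and 149, 170 and 160 in mTECs, where the 170 was not well above background. miR-152 read 68.9, 77.2 and 31.9 in CD45+ cells, where it was not well above background, and 268, 283 and 231 in mTECs. Both miRNAs entered the test at the floor on every array, so their log2 differences of 0 are no measurement.

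Of 5 miRNAs of interferon and innate immune signalling (miR-155, miR-146a, miR-146b, miR-132 and miR-223), 1 was lower in mTECs than in CD45+ cells (14.9% of all tested were), 3 were lower in cTECs than in CD45+ cells (20.1% of all tested) and 2 were higher in mTECs than in cTECs (16.2% of all tested). The one lower in mTECs was miR-223, a myeloid miRNA (log2 difference -0.44, limma adjusted p = 0.00165), a difference understated by the floor. Its signals were 843, 902 and 785 in CD45+ cells and 110, 147 and 140 in mTECs, where the 147 was not well above background. miR-223 is also 1 of the 5 haematopoietic markers, so both counts hold the same reading. miR-155, induced in activated immune cells, differed by -0.80 in mTECs minus CD45+ cells (limma adjusted p = 0.0598), by -2.02 in cTECs minus CD45+ cells (limma adjusted p = 0.00144) and by 1.22 in mTECs minus cTECs (limma adjusted p = 0.0190). miR-146a, a brake on NF-kB signalling, was likewise low in cTECs, with a log2 difference of -1.51 in cTECs minus CD45+ cells (limma adjusted p = 1.54e-04), 1.52 in mTECs minus cTECs (limma adjusted p = 2.55e-04) and 0.01 in mTECs minus CD45+ cells (limma adjusted p = 1). The median log2 difference over the 5 was -0.38 in cTECs minus CD45+ cells and 0 in both other comparisons, where the 0 is set by the floor, and the median over all tested was 0 in each. Readings under the floor were set to it, so the test of miR-132 and miR-146b in mTECs minus CD45+ cells gave no measurement. Before that, miR-132 read 273, 217 and 246 in CD45+ cells and was not well above background in TECs. miR-146b read 327, 340 and 323 in CD45+ cells and 527, 468 and 510 in mTECs.

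The miRNAs with the profile most like each member were found among the 65 detected on all 8 arrays, by the root mean square difference of log2 signals centred on their own mean. For miR-29a these were miR-21 (0.312, Pearson r = 0.989), miR-16 (0.481, r = 0.935) and miR-24 (0.580, r = 0.958). For miR-29b they were let-7f (0.334, r = 0.928), let-7i (0.390, r = 0.903) and let-7g (0.405, r = 0.887). The values of miR-29b on both cTEC arrays and the third mTEC array were at the floor here, and on the second cTEC array neither member was well above background. All these r values are descriptions over 8 arrays of 3 cell types that share scaling and brightness. miR-29c, flat at the floor, has no such neighbours.

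**Figure D5:**
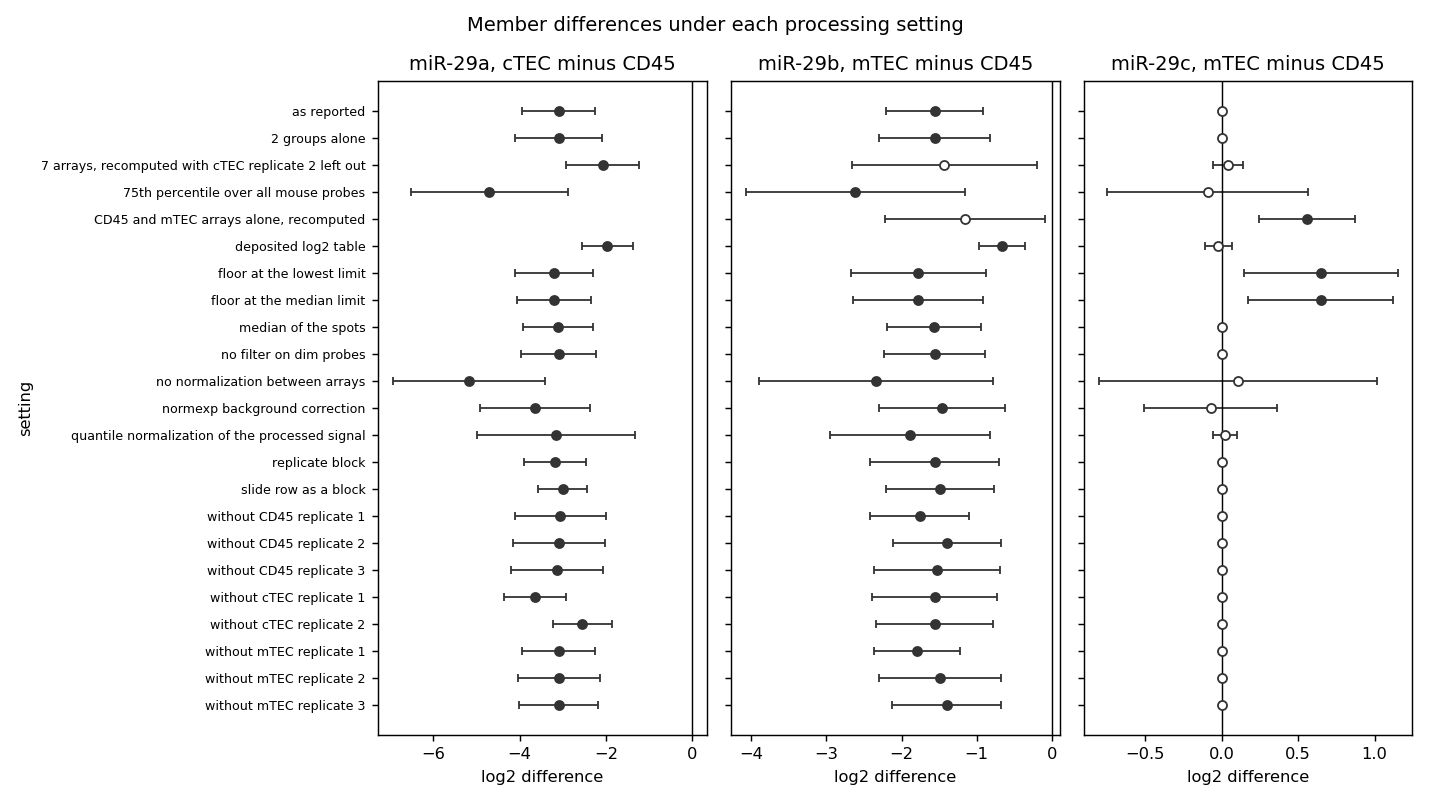
Log2 difference with its 95% confidence interval under each processing setting, for 1 called or processing-dependent difference of each member; filled points had a limma adjusted p under 0.05. miR-29a in cTECs minus CD45+ cells is filled throughout, miR-29b in mTECs minus CD45+ cells is open in 2 settings, and miR-29c in mTECs minus CD45+ cells is filled in 3.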

How the data were processed

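The authors hybridised Cy3-labelled RNA to a single-colour Agilent custom miRNA array and extracted the signals with Feature Extraction, version 10.7.3.1 per the file headers, where the methods name an earlier version. The deposited scanner files give spot intensity, from which the background-subtracted processed signal was used. The authors' deposited table, log2 quantile-normalised and not background-subtracted, served as an alternative; its columns of fold changes, ratios, p-values and group means were not used.

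Outlier spots were dropped, and arrays were scaled to a common 75th percentile, taken over the 65 mouse probes that every one of the 8 arrays detected. Signals under a floor of 621 (log2 9.28), the highest of the arrays' detection limits, were set to it. Log2 values were averaged over the spots kept, at most 5 per probe. A probe counts as well above background, or detected, where most of its spots carry that flag of the scanner software. Tested were 309 miRNAs detected on at least 2 arrays, of which 83 were at the floor throughout and enter as not different. limma 3.58.1 in R 4.3.3 fitted 3 group means with 5 residual degrees of freedom, and p-values were Benjamini-Hochberg adjusted over the 309 (threshold 0.05). The number of arrays limits the precision. The 3 members were named in full; lists of related miRNAs and markers were summarised by counts. Members and lists were chosen with earlier results of these data known. The fit was also run on simulated data with the same spread in every group and shifts in mTECs alone, read in mTECs minus CD45+ cells. That setting holds no dim or discordant cTEC arrays, so it cannot speak to the cTEC comparisons.

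Alternatives were other floors, scalings, background corrections, filters, blocks, the deposited log2 table, each array left out, and, added after seeing the data, 6 or 7 arrays processed alone, the ratios between members on 1 array with their alternatives, and all alternatives of the permutation tests.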

Additional observations from a re-analysis of the deposited data

How the results depend on the processing

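miR-29a in cTECs minus CD45+ cells was called in 21 of 21 alternatives (-5.17 to -1.96), and in mTECs minus cTECs in 21 of 21 (1.29 to 4.18). miR-29b was called in 20 of 22 in mTECs minus CD45+ cells (-2.62 to -0.67), and in 20 of 21 in cTECs minus CD45+ cells (-4.16 to -0.91). With the second cTEC array left out before scaling, these were -1.43 and -1.81 (limma adjusted p = 0.0978 and 0.0997). With CD45+ and mTEC arrays alone, miR-29b was -1.16, miR-29c 0.56 and miR-29a 0.19, a turned direction, not called. miR-29c in mTECs minus CD45+ cells was 0.65 under both lower floors. In cTECs minus CD45+ cells it was -0.15 in the deposited table and -0.83 after normexp, and in mTECs minus cTECs it was 0.78 and 0.66 under the lowest and the median floor and 0.76 after normexp; these were called. The causes were not tested, and cTEC readings of miR-29c were under detection.

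Counts of called miRNAs moved from 74 in mTECs minus CD45+ cells to 121 (deposited table), 140 (lowest floor), 115 (median floor), 128 (normexp) and 31 (only miRNAs detected on all 8 arrays, a set with no member). In cTECs minus CD45+ cells, 95 became 224, 200, 169 and 53 under the last 4, and 170 without the first cTEC array. In mTECs minus cTECs, 70 became 129, 130, 121 and 38, 39 with the percentile over all mouse probes and 147 without the first cTEC array. Higher calls in mTECs minus CD45+ cells, 28 of 74, became 40 of 121, 76 of 140, 55 of 115, 49 of 128 and 14 of 31, 18 of 110 with the percentile over all mouse probes, and 42 of 84 and 72 of 110 on 7 and 6 arrays. In cTECs minus CD45+ cells, 33 of 95 became 139 of 224, 119 of 200, 43 of 169 and 29 of 53, 110 of 170 without the first cTEC array, 6 of 120 with the all-probe percentile, 2 of 113 with no normalisation, 26 of 138 in the deposited table and 66 of 128 on 7 arrays. In mTECs minus cTECs, 50 of 70 became 72 of 129, 70 of 130, 93 of 121, 16 of 38 and 38 of 39, 47 of 147 without the first cTEC array, 73 of 73 with no normalisation, 37 of 82 after quantile normalisation and 48 of 97 on 7 arrays.

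For both TEC populations against CD45+ cells, miR-29a had an exact permutation p of 0.0357 with -2.64 (all-probe percentile), -1.19 (deposited table), -2.03 (normexp) and -1.54 (quantile). Leaving out 1 array gave -1.89 to -1.52 for miR-29b, where the exact permutation p of 0.0571 to 0.0952 is the smallest those designs allow. For miR-29a it gave -1.85 to -0.96 (exact permutation p from 0.0571 to 0.190), with -0.96 when the second cTEC array was left out. Leaving out 1 array gave 67 to 75, 82 to 170 and 58 to 147 calls in the 3 comparisons. Where the array was dropped after scaling, each member's limma call stayed in place.

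With the replicate number as a block, miR-29b in mTECs minus CD45+ cells was -1.56 (limma adjusted p = 0.0345), miR-29a -0.43 (0.390), and in cTECs minus CD45+ cells -1.95 (0.0238) and -3.17 (0.00220); no member's call changed, and 69, 86 and 60 miRNAs were called. Same-numbered arrays deviated together with r from -0.22 to 0.28. With so few arrays in a group, these r values cannot show whether same-numbered arrays came from a shared pool of mice, and the labels do not say. The numbers were not taken as pairs in the main fit.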
